A study of Mus musculus with 6 samples.

Results

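The 38 genes described here make, fold and export secreted proteins in the endoplasmic reticulum. They were taken by name from the 31017 genes of the deposited matrices, from a list chosen with earlier results of these data known. All 38 had unique molecular identifiers (UMIs) in the fibroblasts of every library. Each was read in gated fibroblasts and in fibroblast subtypes, beside the output of 18 matrix genes (collagens, fibronectin and other secreted structural proteins).

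The study asked how Notch3, a Notch family receptor, acts in healthy and inflamed joints. Synovium, the tissue that lines the joint, was pooled from 10 mice per group, and its living cells went into droplet-based 3′ single-cell RNA sequencing with 7000 cells loaded. The 6 groups have 1 library each. They are arthritic mice given a monoclonal antibody against Notch3 (anti-Notch3), arthritic mice given an isotype control antibody (isotype), arthritic Notch3-/- knockout mice (KO), arthritic wild-type mice (WT), healthy Notch3-/- mice (healthy KO) and healthy wild-type mice (healthy WT). Arthritis followed transfer of serum from K/BxN mice. The antibody and isotype labels name no genotype, and strain, age, sex and the time of sampling are not given in the sources used here. No group has a replicate library, so p-values rest on the spread between these pooled libraries.

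A secreted protein enters the reticulum through the Sec61 channel, loses its signal peptide to signal peptidase, and is folded by chaperones and disulphide isomerases. Procollagen needs helpers of its own, among them Serpinh1 (HSP47, a collagen chaperone), Fkbp10, Ppib, Crtap and P3h1. When unfolded protein builds up, the sensors Ire1, Perk and Atf6 start the unfolded protein response. This response raises chaperone genes through Atf6 and Xbp1, which bind the ER stress response element, and slows translation while favouring Atf4. Synovial fibroblasts are specialised for secretion: lining cells release lubricin (Prg4) into the joint fluid, and sublining cells build the collagen matrix.

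Fibroblasts were gated as barcodes with at least 8 UMIs over Dcn, Lum, Pdgfra, Pdpn and Serping1 and few UMIs of immune, endothelial or mural markers. The gate kept 10740 of 18491 barcodes, between 1008 (arthritic WT) and 3441 (healthy KO) per library, with 6483594 to 17256488 UMIs. Across libraries 177 barcode sequences occurred more than once. In fibroblasts Notch3 had 1 UMI in arthritic KO and 6 in healthy KO cells, against 27 in arthritic WT and 80 in healthy WT cells, and anti-Notch3 cells had 8 against 27 in isotype cells. Haemoglobin transcripts made up 0.0855% of fibroblast UMIs in healthy WT cells and at most 0.0025% in the other 5 libraries. Plasma and B cell markers (Jchain, Mzb1, Ighm, Igkc, Cd79a) held at most 0.0007% in any library. Dissociation stress genes (Fos, Jun, Junb, Egr1, Hspa1a and 6 others) varied more: they held 2.11% in anti-Notch3, 1.39% in isotype, 3.44% in arthritic KO, 1.65% in arthritic WT, 2.92% in healthy KO and 2.09% in healthy WT fibroblasts.

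The 38 genes took a larger share of fibroblast UMIs in arthritic than in healthy joints, while the matrix genes did not follow the same order. Together they held 1.06% of fibroblast UMIs in anti-Notch3 (95% exact Poisson interval 1.05 to 1.06), 1.42% in isotype (1.41 to 1.42), 1.21% in arthritic KO (1.204 to 1.219) and 1.19% in arthritic WT cells (1.18 to 1.19). In healthy joints they held 0.983% in KO (0.979 to 0.988) and 0.880% in WT cells (0.875 to 0.885). All 4 arthritic libraries lay above both healthy ones. The intervals cover counting error only. Matrix genes held 3.59% in anti-Notch3, 7.06% in isotype, 2.84% in arthritic KO and 4.91% in arthritic WT cells, against 3.65% in healthy KO and 4.10% in healthy WT cells. Here the arthritic libraries lay on both sides of the healthy ones. Because these are sums over cells, fewer cells of a type and less RNA per cell cannot be told apart. The ratio of reticulum to matrix UMIs was highest in arthritic KO cells at 0.427, followed by 0.294 in anti-Notch3, 0.241 in arthritic WT and 0.201 in isotype cells, beside 0.270 in healthy KO and 0.215 in healthy WT cells. Both targeted arthritic libraries had a higher ratio than both arthritic libraries with Notch3 left intact. Immune cells of the same libraries gave the 38 genes 0.590% to 0.800% of their UMIs and the matrix genes at most 0.151%.

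**Figure D1:**
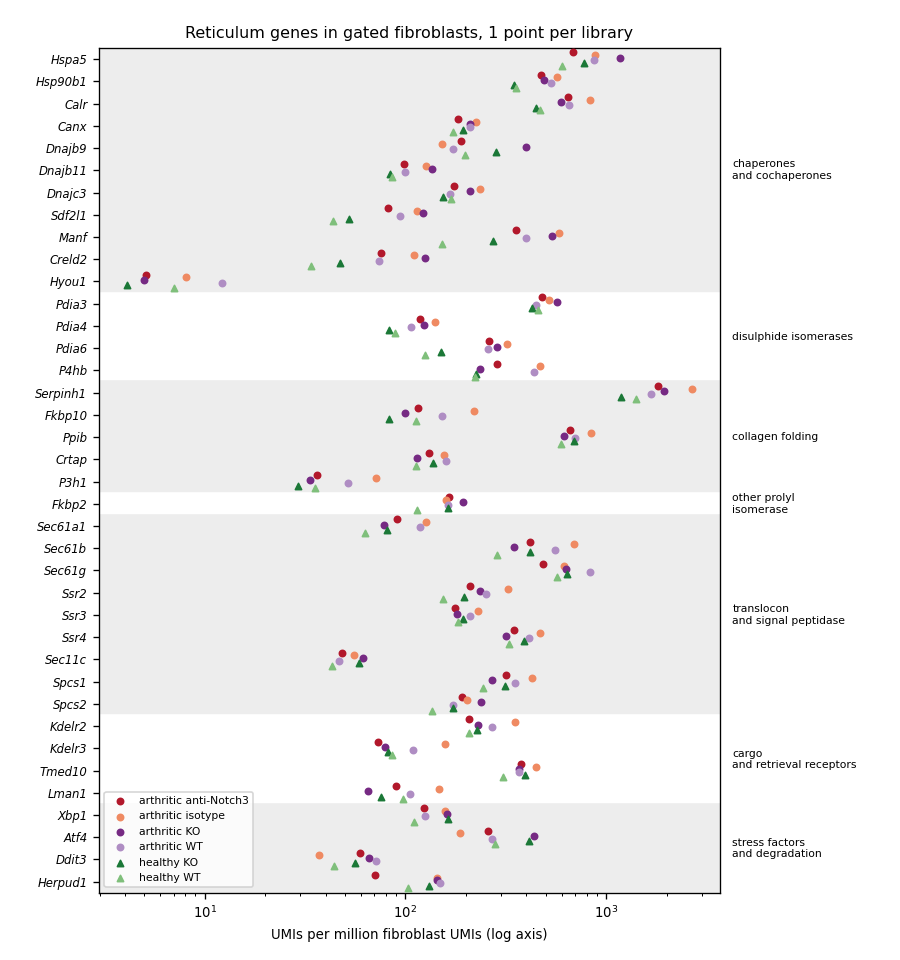
Level of each of the 38 genes, grouped by role, in CPM of fibroblast UMIs on a log axis, with 1 point per library (circles arthritic, triangles healthy). Manf, Creld2, Sdf2l1 and Pdia6 have all 4 arthritic points to the right of both healthy points, while Atf4 and Ddit3 have them mixed.

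Of 11 chaperones 6, and of 4 disulphide isomerases 3, had higher levels in all 4 arthritic libraries than in either healthy library, although none passed the adjusted test given further on. Manf, a stress-induced protein that tunes the chaperone BiP, was at 354 CPM (UMIs scaled to the same total in every library) in anti-Notch3, 580.0 in isotype, 536 in arthritic KO and 400 in arthritic WT cells, against 272 in healthy KO and 152 in healthy WT cells. Creld2, a stress-induced disulphide isomerase relative, had 75.6 CPM in anti-Notch3, 111 in isotype, 125 in arthritic KO and 74.3 in arthritic WT cells, against 47.0 in healthy KO and 33.8 in healthy WT cells. Pdia6, a disulphide isomerase that also quiets Ire1, had 260.0 CPM in anti-Notch3, 320.3 in isotype, 286 in arthritic KO and 258 in arthritic WT cells, against 150.2 in healthy KO and 125 in healthy WT cells. For these genes no arthritic library overlapped a healthy one. The same held for Sdf2l1 (a BiP cofactor), Hsp90b1 (the reticulum's Hsp90), Calr (a chaperone for glycoproteins), Dnajb11 (a BiP cochaperone), Pdia4, P4hb (a disulphide isomerase and the beta subunit of prolyl hydroxylase), Serpinh1 and Ssr2 (a subunit of the translocon-associated complex).

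In all, 11 of the 38 genes had every arthritic library above both healthy ones and 0 had every one below. Over all 13339 genes tested those shares were 8.32% and 6.91%. By role, the 11 were 6 of 11 chaperones and cochaperones, 3 of 4 disulphide isomerases, 1 of 5 collagen folding genes and 1 of 9 translocon and signal peptidase genes. None of the 4 cargo and retrieval receptors or the 4 stress factors was among them. Scaling was edgeR's TMM, under which the median gene moved by at most 0.12 on the log2 scale in any pair of libraries compared.

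The estimates were set out with and without Notch3 targeting, with a different healthy library behind each. No healthy group was given antibody, so anti-Notch3 was set against healthy KO and isotype against healthy WT. For arthritic WT and isotype against healthy WT, 36 of 38 genes had a log2 change above 0, with a median of 0.48, against 0.00 for all genes. For anti-Notch3 and arthritic KO against healthy KO, 22 of 38 lay above 0 and the median was 0.11, against 0.01 for all genes. None of the 38 genes passed in either contrast by edgeR's quasi-likelihood test with Benjamini-Hochberg adjustment at 0.05. That background was 0% of 13339 genes called in both contrasts. At an unadjusted p under 0.05 the intact contrast had 13 of 38 genes (2448 of all genes) and the targeted contrast 3 of 38 (534 of all). DESeq2 called 5 members in the intact contrast and 0 in the targeted one. The 5 were Manf, Pdia6, Sec61b, P4hb and Creld2, all higher in arthritis. For DESeq2 and the alternatives that follow, the share of all genes called is not given, so these counts lack a background. Without the filter on low counts edgeR called 8 in the intact contrast and 1 (Creld2) in the targeted one, all higher in arthritis, and with arthritic WT left out it called Manf alone in the intact contrast (adjusted p = 0.0399).

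In the intact contrast Manf had the largest estimate, with a log2 change of 1.66 ± 0.39 (SE, edgeR adjusted p = 0.146). It was higher in both arthritic libraries than in healthy WT, by 1.39 for arthritic WT and 1.93 for isotype. Creld2 followed at 1.42 ± 0.41 and Sdf2l1 at 1.23 ± 0.33, then Pdia6 at 1.18 ± 0.25 (edgeR adjusted p = 0.129, the smallest among the members). Sec61b, a small subunit of the channel, had 1.10 ± 0.25 and Sec61a1, its pore, 0.94 ± 0.20. In the targeted contrast the same 2 channel genes were at -0.17 ± 0.24 and 0.03 ± 0.19. Sec61b was at 415 CPM in anti-Notch3 and 348 in arthritic KO cells, against 419 in healthy KO cells. With intact Notch3 it was at 691 CPM in isotype and 559 in arthritic WT cells, against 285 in healthy WT cells. Healthy KO thus stood above healthy WT for this gene, and the arthritic order was the reverse.

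The stress factors did not have all arthritic libraries above all healthy ones. Atf4, the factor favoured when Perk is active, was at 258 CPM in anti-Notch3, 188 in isotype, 436 in arthritic KO and 270 in arthritic WT cells, against 410.5 in healthy KO and 281 in healthy WT cells. The arthritic values overlapped the healthy ones. Ddit3 (CHOP, a death-linked factor downstream of Atf4) had 59.2 CPM in anti-Notch3, 37.2 in isotype, 65.5 in arthritic KO and 71.1 in arthritic WT cells, against 55.9 in healthy KO and 44.1 in healthy WT cells. Xbp1, the factor spliced by Ire1, ranged from 124 to 160.2 CPM in arthritic and from 111 to 163 CPM in healthy libraries. A 3′ tag does not tell spliced from unspliced Xbp1. Herpud1, a stress-induced degradation factor, was lowest in anti-Notch3 at 70.5 CPM, against 144 in isotype, 144 in arthritic KO and 148 in arthritic WT cells, against 131 in healthy KO and 103 in healthy WT cells. The other 3 arthritic libraries lay above both healthy ones.

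**Figure D2:**
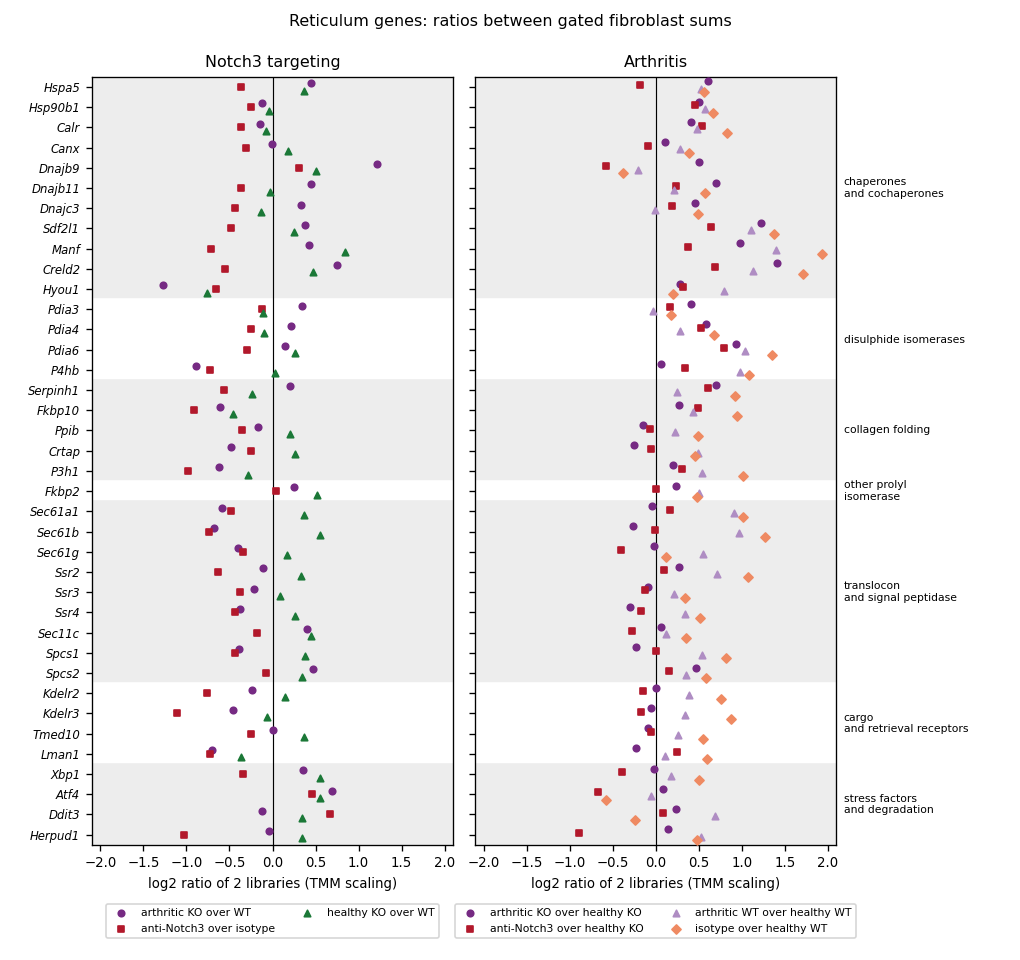
Log2 ratio between 2 libraries for each gene, after TMM scaling. Left, targeted over intact within the arthritic genotype pair, the antibody pair and the healthy pair. Right, arthritic WT and isotype over healthy WT, and arthritic KO and anti-Notch3 over healthy KO. Sec61b, Sec61a1, P4hb, Fkbp10, P3h1, Lman1 and Kdelr3 lie left of 0 in both arthritic pairs, while Dnajb9 and Atf4 lie right of it in both.

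Most genes that serve collagen and the export of cargo had lower levels in both targeted arthritic libraries than in both intact ones. Among chaperones 4 of 11 did, which is near the 27.8% of all genes. Of 38 genes, 18 had both targeted arthritic libraries below both intact ones and 2 had them above. Over all 13339 genes those shares were 27.8% and 18.9%. The 18 comprised 4 of 5 collagen folding genes, 6 of 9 translocon and signal peptidase genes, 3 of 4 cargo and retrieval receptors, 4 of 11 chaperones and 1 of 4 disulphide isomerases. The 2 above were Dnajb9, a BiP cochaperone that restrains Ire1, and Fkbp2, a prolyl isomerase.

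P3h1, a collagen prolyl 3-hydroxylase, was at 36.1 CPM in anti-Notch3 and 33.5 in arthritic KO cells, against 71.6 in isotype and 51.6 in arthritic WT cells. Fkbp10, a collagen prolyl isomerase, was at 116 in anti-Notch3 and 99.6 in arthritic KO cells, against 218 in isotype and 152 in arthritic WT cells. P4hb was at 285 in anti-Notch3 and 235 in arthritic KO cells, against 470.0 in isotype and 437 in arthritic WT cells. Targeted and intact libraries did not overlap for any of these. The receptors followed: Kdelr3, which returns escaped residents to the reticulum, was at 73.0 and 79.0 CPM in anti-Notch3 and arthritic KO cells, against 158 in isotype and 108 in arthritic WT cells. Lman1, a cargo receptor for glycoproteins, was at 89.6 and 64.9 CPM, against 148 in isotype and 105 in arthritic WT cells.

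None of the 38 genes passed the adjusted threshold for targeting in arthritis, against 4.64% of 13339 genes by edgeR's quasi-likelihood test with Benjamini-Hochberg adjustment. DESeq2 also called 0 of the 38. At an unadjusted p under 0.05 there were 10 of 38, against 2508 of all genes. The log2 changes of these were -0.73 ± 0.17 for P3h1 (edgeR adjusted p = 0.0553), -0.69 ± 0.18 for Fkbp10, -0.73 ± 0.19 for P4hb, -0.64 ± 0.16 for Lman1 and -0.71 ± 0.20 for Kdelr3. Sec61b had -0.63 ± 0.19, Sec61a1 -0.46 ± 0.16 and Hyou1 (a large Hsp70 relative, at 12.1 CPM or less) -0.90 ± 0.28. Dnajb9 had 0.83 ± 0.25 and Atf4 0.65 ± 0.19, both higher with targeting. Without the filter on low counts, which leaves more genes in the fit, 1 member was called higher (Dnajb9) and 6 lower. The lower ones were P3h1, Kdelr3, Fkbp10, P4hb, Lman1 and Hyou1. The share of all genes called in that setting is not given here. Markers of other cells were called in the same contrast. Haemoglobin genes were higher with targeting, 4 of 4, at 0.0025% of UMIs in arthritic KO cells and at most 0.0001% in the other arthritic libraries, and also 4 of 4 in the difference between arthritic and healthy joints. Of 4 chondrocyte and osteoblast markers 1 (Ibsp) was higher with targeting, and together they held 0.105% in anti-Notch3 and 0.154% in arthritic KO cells, against 0.102% in isotype and 0.0588% in arthritic WT cells. The part of these markers in the members' values was not tested. With 42 Scrublet-marked fibroblasts left out, P3h1 passed by edgeR (adjusted p = 0.0478).

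Serpinh1 was the collagen helper whose targeted and intact libraries overlapped. It was at 1806 CPM in anti-Notch3 and 1932 in arthritic KO cells, against 2669.8 in isotype and 1673 in arthritic WT cells. The KO library lay above its control and the antibody library below, by log2 ratios of 0.21 and -0.56. Hspa5 (BiP, the main Hsp70 of the reticulum) did likewise, at 684 CPM in anti-Notch3 against 885 in isotype, and 1177 in arthritic KO against 866 in arthritic WT. Arthritic KO over WT had 17 genes higher and 21 lower, with a median of -0.08, which equals the -0.08 of all genes. Anti-Notch3 over isotype had 4 higher and 34 lower, with a median of -0.37, against -0.06 for all genes. Healthy KO over healthy WT had 26 higher and 12 lower, with a median of 0.25, against -0.12 for all genes.

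Whether targeting acted differently in arthritic and in healthy joints was tested directly. None of the 38 genes passed by edgeR with Benjamini-Hochberg adjustment, against 1.72% of 13339 genes. At an unadjusted p under 0.05 there were 4 of 38, against 2206 of 13339 genes in all, which is the larger share. The 4 were Sec61b (-1.27 ± 0.33), Sec61a1 (-0.91 ± 0.28), P4hb (-0.84 ± 0.32) and Spcs1, a signal peptidase subunit (-0.80 ± 0.32). DESeq2 called 0 of the 38.

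Dissociation stress genes, read as markers of handling, differed between the same libraries. They held 2.11% in anti-Notch3 against 1.39% in isotype cells, and 3.44% in arthritic KO against 1.65% in arthritic WT cells, with Junb and Zfp36 called higher and Hspa1b lower of 11 genes. In cells at or below a stress share of 2.28% (stress-poor cells), the log2 change of Atf4 with targeting was 0.21 by edgeR (adjusted p = 0.719) and that of Dnajb9 0.46 (adjusted p = 0.345), while P3h1 (-0.88) and Kdelr3 (-0.85) were called lower. That alternative was chosen after seeing the data. The part of dissociation in these values, or in those of the other members, was not tested.

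Fibroblast subtypes were then gated on raw UMIs of markers outside the 38 genes. The gates were lining (Clic5, Tspan15, Col22a1), Pi16 (Pi16, Dpp4), Myoc/Dkk2, Ccl11/Smoc2, Sfrp4/Fbln7, Saa3/Cxcl5 (with Hp), H19/Cthrc1 and a tendon-like gate (Chad, Angptl7). A fibrocartilage-like gate (Tnn, Acan) made 9 in all, but had fewer than 30 cells in every library. Cells that passed several gates (2287) or none (3172) were set aside, and 36 combinations of library and subtype with at least 30 cells entered the fit, with library as a term. Each subtype was set against the mean of the others. Of 38 genes, 35 passed a joint test for any difference among subtypes by edgeR's quasi-likelihood test with Benjamini-Hochberg adjustment, against 53.5% of 9104 genes. Hyou1, Sec61a1 and Ssr3 did not pass this joint test, which is separate from the tests of single subtypes, where Sec61a1 was called in H19/Cthrc1 fibroblasts.

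Load and matrix output were highest in different gates in some libraries and in the same gate in others. In the healthy KO library the tendon-like gate led in both, at 1.19% reticulum and 4.605% matrix. Sfrp4/Fbln7 fibroblasts led in both in the arthritic KO library, at 1.34% and 3.08%. Saa3/Cxcl5 fibroblasts, which express acute-phase genes, gave the 38 genes 1.63% of UMIs in isotype and 1.40% in arthritic WT libraries, the highest share in each. Matrix genes took 4.63% and 4.59% there. H19/Cthrc1 fibroblasts had the highest matrix share, between 5.79% and 8.63%, with a reticulum share of 1.07% to 1.32%. Lining fibroblasts gave the 38 genes 0.827% to 1.11% and the matrix genes 2.22% to 4.76%, while Prg4 alone took 4.28% to 11.4%.

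**Figure D3:**
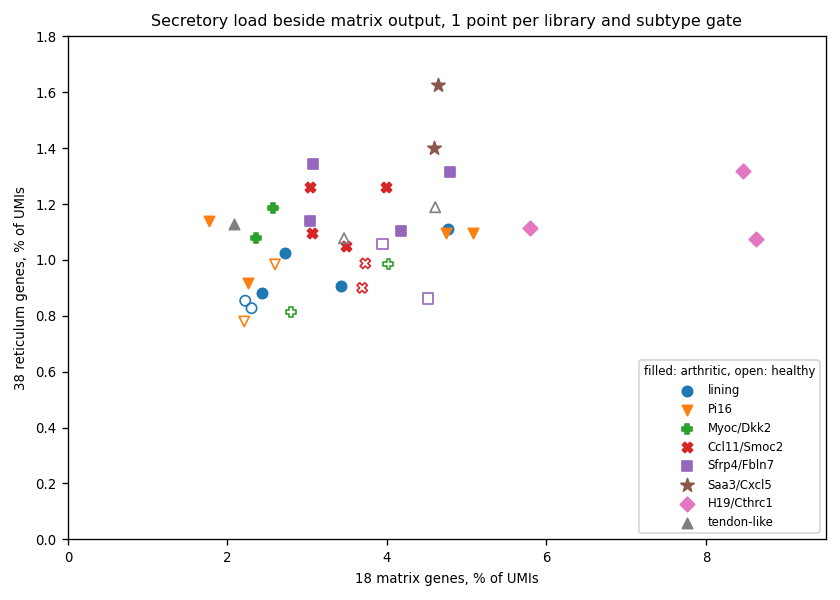
Share of UMIs in the 38 reticulum genes (vertical axis, %) against the share in 18 matrix genes (horizontal axis, %), with 1 point per library and subtype gate (filled arthritic, open healthy). Saa3/Cxcl5 points are highest at 1.40% and 1.63%, and H19/Cthrc1 points lie furthest right at 5.79% to 8.63% matrix.

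Over the 36 combinations the reticulum share and the matrix share had a Pearson correlation of 0.37, and 0.21 after centring within each library. These points share libraries, depth and a fixed total of UMIs, so the values are descriptions. By role the correlation was 0.52 for collagen folding genes, 0.52 for translocon genes and 0.45 for receptors, but 0.20 for disulphide isomerases, 0.01 for chaperones and -0.19 for stress factors. Centred within each library these were 0.40 for collagen folding genes, 0.32 for translocon genes, 0.30 for receptors, 0.04 for disulphide isomerases, -0.13 for chaperones and 0.10 for stress factors, so the last changed sign. Kdelr2, a retrieval receptor, had the highest single value at 0.72, followed by Sec61a1 at 0.65, Kdelr3 at 0.64 and P4hb at 0.58. Dnajb9 had the lowest at -0.37, but -0.09 after centring, where Spcs2 was lowest at -0.35 and Kdelr2 was still highest at 0.58. Across single fibroblasts the Spearman correlation of the shares was 0.10 in anti-Notch3, 0.12 in isotype, 0.12 in arthritic KO and 0.04 in arthritic WT cells, against 0.37 in healthy KO and 0.32 in healthy WT cells.

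**Figure D4:**
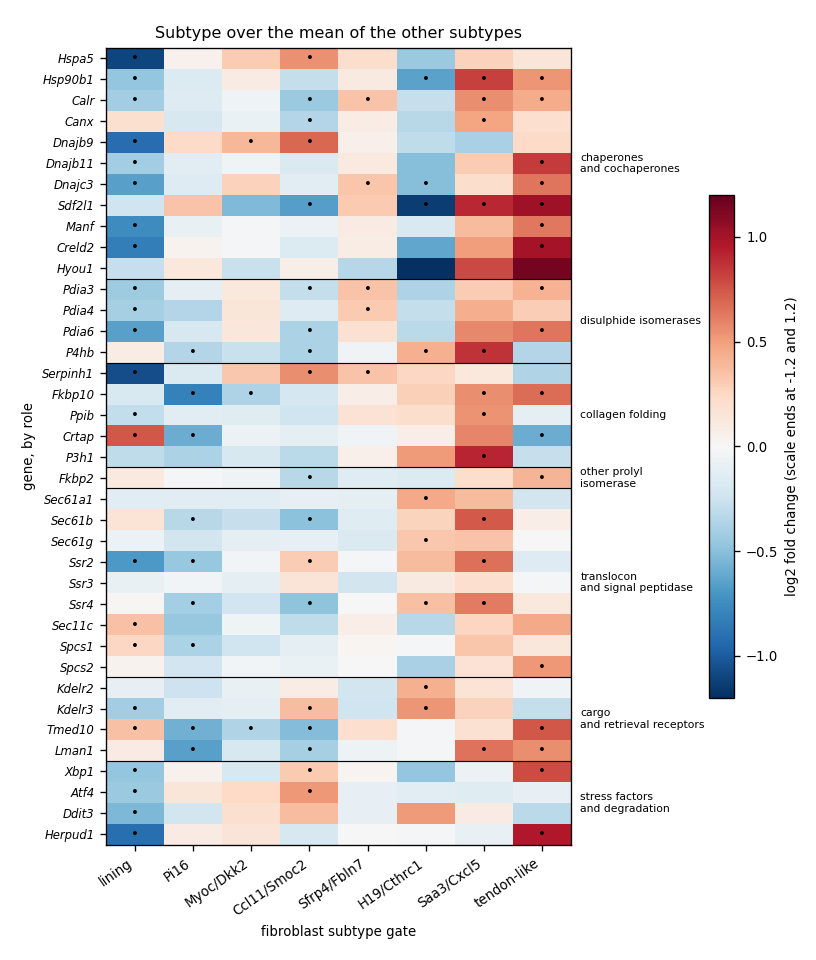
Log2 fold change of each gene (down the page, by role) in each subtype gate (across) over the mean of the other gates, with the colour scale ending at -1.2 and 1.2 and a dot where the edgeR adjusted p is under 0.05. The lining column is blue for most chaperones and for all 4 stress factors, and the Saa3/Cxcl5 and tendon-like columns are mostly red.

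In lining fibroblasts, more of the 38 genes were lower than higher, among them most chaperones and all 4 stress factors. Of 38 genes 19 were lower and 4 higher, against 19.6% and 22.1% of 9104 genes. The lower ones were 8 of 11 chaperones, 3 of 4 disulphide isomerases, 2 of 5 collagen folding genes, 1 of 9 translocon genes, 1 of 4 receptors and 4 of 4 stress factors. Lower calls numbered 16 to 19 under every alternative run. A list of 13 further folding genes did not share this direction: of 12 tested, 5 were higher (Txndc5 at 0.90 ± 0.08, Pdia5, Uggt1, Ero1l and Dnajc10) and 4 lower (Fkbp11 at -0.62 ± 0.14, Erp44, Txndc11 and Erp29), with a median log2 change of 0.19, against 0.02 for all genes.

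Hspa5 was at 439 CPM in lining cells of anti-Notch3, 479 of isotype, 443 of arthritic KO, 444 of arthritic WT, 392 of healthy KO and 454 of healthy WT libraries. The lowest of the other subtypes in those libraries was at 499, 739, 1022, 673, 848 and 481 CPM, so lining was lowest in 6 of 6. Its log2 change was -1.10 ± 0.12 (SE, edgeR adjusted p = 2.4e-10). Serpinh1 was at 982, 1565, 686, 1020, 535 and 656 CPM in lining cells in the same order and was again lowest in 6 of 6 libraries, with a log2 change of -1.07 ± 0.11 (edgeR adjusted p = 5e-11). The next genes were Dnajb9 at -0.92 ± 0.11, Herpud1 at -0.90 ± 0.12, Creld2 at -0.83 ± 0.16 and Manf at -0.75 ± 0.13. Among stress factors Ddit3 had -0.54 ± 0.16, Xbp1 -0.46 ± 0.11 and Atf4 -0.44 ± 0.10.

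Higher in lining were Crtap, which partners P3h1 in procollagen hydroxylation, Tmed10 (a cargo receptor), and the signal peptidase genes Sec11c and Spcs1. Crtap was at 243 CPM in lining cells of anti-Notch3, 221 of isotype, 191 of arthritic KO, 220.2 of arthritic WT, 184 of healthy KO and 178 of healthy WT libraries. It was the highest subtype in 6 of 6, with a log2 change of 0.75 ± 0.10 (edgeR adjusted p = 1.4e-07). Tmed10 had 0.35 ± 0.08, Sec11c 0.35 ± 0.13 and Spcs1 0.25 ± 0.08. Of 18 matrix genes 15 were lower and 2 higher in lining, the higher ones being Fn1 and Tnc. Dissociation stress genes were also lower in lining, 8 of 11, with shares of 0.969% to 2.16%, and in stress-poor cells alone 18 of the 38 genes were lower in lining.

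Promoters were read for the ER stress response element, the sequence through which Atf6 and Xbp1 act on chaperone genes. It was searched as CCAAT, then any 9 bases, then CCACG, on either strand, in the 250 bases before the gene start. RefSeq promoters (GRCm38.p6) were matched for 30 of the 38 genes. The element occurred in 7 of the 30 (Hspa5, Hsp90b1, Calr, Canx, Pdia6, Dnajc3 and Creld2), against 35 of 27025 genes (0.130%). Of these 7, 6 were lower in lining and 5 higher in the tendon-like gate, beside 19 and 16 of all 38 members and 19.6% and 9.66% of all genes. Canx, a membrane chaperone for glycoproteins, had 0.19 ± 0.08 in lining (edgeR adjusted p = 0.0585). The list of members was chosen for its role, so their share is a description, and a match is not evidence of binding.

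The stretches listed here hold the element of 6 of these genes and the promoter of Crtap, which has none in the window searched. Crtap was higher in lining, but Serpinh1, Dnajb9 and Herpud1, also without the element there, were lower in lining. Each runs 5′ to 3′ on the strand of the gene, and capitals mark the outer parts of the element; where the element lies on the opposite strand they read CGTGG and ATTGG. Hspa5 lies at chr2:34771940-34772089 (+), Pdia6 at chr12:17266439-17266588 (+), Dnajc3 at chr14:118937782-118937931 (+), Creld2 at chr15:88819496-88819645 (+), Hsp90b1 at chr10:86705445-86705594 (-), Canx at chr11:50325674-50325823 (-) and Crtap at chr9:114390713-114390862 (-).
Hspa5: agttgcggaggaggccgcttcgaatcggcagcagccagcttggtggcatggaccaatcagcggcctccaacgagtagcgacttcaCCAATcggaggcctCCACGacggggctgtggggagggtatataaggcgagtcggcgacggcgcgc
Pdia6: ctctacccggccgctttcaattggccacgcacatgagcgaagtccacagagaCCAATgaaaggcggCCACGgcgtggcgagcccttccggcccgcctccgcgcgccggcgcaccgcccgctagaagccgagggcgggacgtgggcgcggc
Dnajc3: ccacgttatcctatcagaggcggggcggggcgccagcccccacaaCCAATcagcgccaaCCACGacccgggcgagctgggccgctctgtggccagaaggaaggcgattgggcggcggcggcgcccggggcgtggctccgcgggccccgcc
Creld2: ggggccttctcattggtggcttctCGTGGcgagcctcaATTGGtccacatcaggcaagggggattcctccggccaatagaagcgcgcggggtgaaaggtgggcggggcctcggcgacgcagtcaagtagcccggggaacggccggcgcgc
Hsp90b1: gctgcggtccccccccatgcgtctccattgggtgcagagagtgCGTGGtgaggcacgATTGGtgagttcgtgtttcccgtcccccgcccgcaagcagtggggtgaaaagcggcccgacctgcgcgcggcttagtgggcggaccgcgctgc
Canx: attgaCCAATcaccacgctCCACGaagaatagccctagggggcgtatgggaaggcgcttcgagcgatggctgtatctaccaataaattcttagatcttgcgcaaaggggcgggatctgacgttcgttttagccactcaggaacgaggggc
Crtap: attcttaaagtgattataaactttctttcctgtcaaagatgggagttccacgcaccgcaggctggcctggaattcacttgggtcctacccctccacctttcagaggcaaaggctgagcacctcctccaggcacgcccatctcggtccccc

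The element began 65 bases before the start of Hspa5, 98 before that of Pdia6, 105 before that of Dnajc3, 126 before that of Creld2 and 145 before that of Canx. Hsp90b1 had one at 107 bases and another at 212 bases, outside the stretch shown. Calr had one at 162 bases. A plain CCAAT box was found in 23 of 30 promoters, against 37.5% of all genes.

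**Figure D5:**
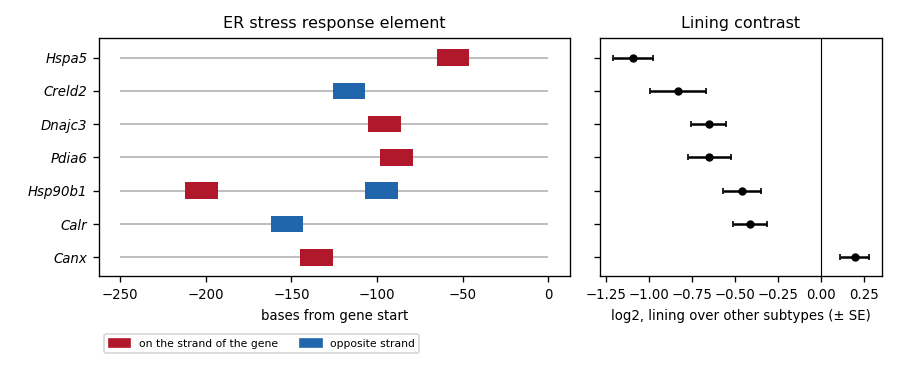
Position of the ER stress response element in bases from the gene start, by gene, with red on the strand of the gene and blue on the opposite strand, beside the log2 change (± SE) of the same genes in lining over the other subtypes. The element of Hspa5 lies nearest the start, 65 to 47 bases before it, and Canx is the gene with the element that was not lower in lining.

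Saa3/Cxcl5 fibroblasts had higher levels of genes for folding and for entry into the reticulum. There 12 of 38 genes were higher and 0 lower, against 5.18% and 3.89% of 9104 genes, from 67 isotype cells and 89 arthritic WT cells. No other library had 30 such cells. P4hb was at 610.4 CPM in isotype and 601 in arthritic WT cells of this gate, against 286 to 483 and 194 to 485 in the other subtypes of each library, with a log2 change of 0.86 ± 0.14 (edgeR adjusted p = 2.6e-05). Hsp90b1 was at 926 and 826 CPM, against 453 to 532 in other isotype and 291 to 524 in other arthritic WT subtypes, with a change of 0.82 ± 0.18. Both genes were highest in this gate in both libraries. P3h1 (0.91 ± 0.24), Sdf2l1 (0.91 ± 0.26), Sec61b (0.74 ± 0.15), Ssr2 (0.66 ± 0.17) and Lman1 (0.65 ± 0.20) were also higher, while 0 of 4 stress factors were called. Of 18 matrix genes 2 were higher and 1 lower. Dissociation stress genes were lower here too, 8 of 11.

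H19/Cthrc1 fibroblasts, in which 17 of 18 matrix genes were higher, had calls in both directions. Of 38 genes 6 were higher and 3 lower, against 6.03% and 2.16% of 9104 genes. With median-of-ratios scaling, and with DESeq2, this balance turned to 3 higher and 7 lower, while thinned cells had 1 higher and stress-poor cells 0 higher, each with 3 lower. All 11 chaperones had a change below 0, and Sdf2l1 (-1.14 ± 0.25), Hsp90b1 (-0.64 ± 0.16) and Dnajc3 (-0.51 ± 0.15), a cochaperone that restrains Perk, passed. Sdf2l1 was at 48.6 CPM in anti-Notch3, 56.0 in isotype and 35.4 in arthritic WT cells, the lowest subtype in 3 of 3 libraries. Higher were Kdelr3 (0.53 ± 0.17), Sec61a1 (0.46 ± 0.14), Kdelr2 (0.43 ± 0.14), P4hb (0.43 ± 0.12), Ssr4 (0.36 ± 0.12) and Sec61g (0.33 ± 0.10). Kdelr2 was at 287 CPM in anti-Notch3, 383 in isotype and 328 in arthritic WT cells, the highest subtype in 3 of 3. These higher calls rest on few libraries: without anti-Notch3 0 were left, without arthritic KO 2 and without healthy WT 3. Lower calls numbered 1 without arthritic WT, 1 without isotype, 6 without arthritic KO and 5 without healthy WT.

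Tendon-like fibroblasts had higher levels of 7 of 11 chaperones, while of 5 collagen folding genes 1 was higher and 1 lower. This gate held 48 healthy WT, 153 healthy KO and 32 arthritic KO cells, and no other library had 30. Of 38 genes 16 were higher and 1 lower, against 9.66% and 8.72% of 9104 genes, and the 16 held 7 of 11 chaperones. Herpud1 was at 394 CPM in arthritic KO, 242 in healthy KO and 139 in healthy WT cells of this gate, the highest subtype in 3 of 3 libraries, with a log2 change of 0.96 ± 0.16 (edgeR adjusted p = 2.2e-05). Creld2 and Sdf2l1 were highest in both healthy libraries but not in arthritic KO, where another gate exceeded them. No chaperone was highest in this gate in arthritic KO cells. There the 38 genes held 1.13% of its UMIs, which ranked 5 of 6 gates. In the healthy libraries the gate ranked highest, at 1.08% in WT and 1.19% in KO cells. Dnajb11 (0.84 ± 0.17), Xbp1 (0.78 ± 0.16) and Tmed10 (0.74 ± 0.12) were also higher. Crtap was lower at -0.59 ± 0.20. Chondrocyte markers were higher in this gate, 2 of 3 tested, and their part was not tested. Without healthy WT 4 genes were higher and without healthy KO 10.

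Ccl11/Smoc2 fibroblasts had 7 genes higher and 11 lower, against 13.6% and 9.85% of 9104 genes. Dnajb9 (0.69 ± 0.11), Serpinh1 (0.56 ± 0.10), Hspa5 (0.55 ± 0.11) and Atf4 (0.52 ± 0.10) led the higher ones, and Sdf2l1 (-0.67 ± 0.20), Tmed10 (-0.52 ± 0.09) and Sec61b (-0.49 ± 0.10) the lower ones. This gate had the highest dissociation stress shares, 3.37% to 5.04%, with 9 of 11 stress genes higher. In stress-poor cells alone 1 gene was higher and 0 lower, and Dnajb9 (-0.0475) and Hspa5 (-0.0418) changed sign. Lower calls numbered 5 without arthritic WT, 5 without isotype and 7 without healthy KO, and higher calls 4 without arthritic KO.

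In Pi16 fibroblasts 0 genes were higher and 9 lower, against 9.74% and 6.12% of 9104 genes, with Fkbp10 (-0.81 ± 0.13), Lman1 (-0.65 ± 0.16), Crtap (-0.59 ± 0.15) and Tmed10 (-0.58 ± 0.10) furthest below. Without isotype 5 were lower. Sfrp4/Fbln7 fibroblasts had 5 higher and 0 lower, against 8.0% and 1.14%, namely Serpinh1 (0.35 ± 0.10), Pdia3 (0.34 ± 0.08), Calr (0.34 ± 0.09), Dnajc3 (0.33 ± 0.09) and Pdia4 (0.32 ± 0.10). Without arthritic KO 2 and without anti-Notch3 3 were higher. Chondrocyte and osteoblast markers were higher in the Sfrp4/Fbln7 gate too, 2 of 3 tested (Comp and Bglap), at 0.0890% to 0.358% of its UMIs, and their part was not tested. Myoc/Dkk2 fibroblasts had 1 higher and 2 lower, against 10.2% and 3.33%: Dnajb9 (0.40 ± 0.12), Fkbp10 (-0.37 ± 0.12) and Tmed10 (-0.36 ± 0.11). Their lower calls numbered 0 without healthy WT and 1 without any other single library, and their higher calls 0 to 2. Of 11 dissociation stress genes, 9 were higher in Myoc/Dkk2 and 6 in Sfrp4/Fbln7 fibroblasts, while 3 were lower in Pi16 and 3 in H19/Cthrc1 fibroblasts, and their part was not tested.

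Targeting in arthritis was tested again inside the 4 subtypes that all 4 arthritic libraries held. The mix of gates differed between these libraries. H19/Cthrc1 held 245 isotype, 83 anti-Notch3 and 67 arthritic WT cells, and fewer than 30 in arthritic KO. Saa3/Cxcl5 reached 30 cells only in isotype and arthritic WT. The part of this mix in the values of all fibroblasts was not tested. In lining 0 of 37 genes tested passed by edgeR with Benjamini-Hochberg adjustment (0.520% of all genes). At an unadjusted p under 0.05 there were 5, against 648 of 6928 genes in all. Pi16 had 0 of 36 (1.56% of all genes), with 4 unadjusted, against 267 of 2817 genes in all. Ccl11/Smoc2 had 0 of 36 (0.308% of all genes), with 3 unadjusted, against 182 of 2273 genes in all. DESeq2 called 0 in each of these 3 subtypes. Sfrp4/Fbln7 had 1 lower of 37 (3.53% of all genes), Kdelr3, with a log2 change of -1.01 ± 0.25 (edgeR adjusted p = 0.0076). DESeq2 (-0.98, adjusted p = 0.999) and the stricter gate (-1.08, edgeR adjusted p = 0.112) gave a like change without a call, and cells thinned to equal depth gave no value for it. The direction of the members differed between subtypes. In all fibroblasts 14 of 38 had a log2 change above 0 with targeting, with a median of -0.11. Within lining it was 11 of 37 (median -0.13) and within Pi16 16 of 36 (-0.04). Within Ccl11/Smoc2 it was 23 of 36 (0.12) and within Sfrp4/Fbln7 22 of 37 (0.13).

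Other genes of the pathway were read from lists. With targeting in arthritis 0 of 18 matrix genes were higher and 6 lower, among them Tnc (-4.36), Col12a1 (-2.65) and Col16a1 (-1.51). Of 16 genes for collagen hydroxylation and trimming 4 were lower, led by the lysyl hydroxylase Plod2 (-2.04), and of 13 further folding genes Pdia5 (-1.13) and Fkbp11 (-1.10) were lower. Of 13 stress sensors and effectors Ppp1r15a, which reverses the Perk block on translation, was higher (1.43). None of 13 degradation genes, 21 signal recognition and glycosylation genes or 23 transport genes was called. Over all 13339 genes 4.64% were called in this contrast. Lists with 0 or 1 call are too short to be told apart from that share.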

How the data were processed

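Synovial cells of 6 mouse libraries were profiled by droplet 3′ single-cell RNA sequencing. The authors deposited raw UMI counts per gene and barcode, produced with Cell Ranger 3.0.2 on mm10, per the submitters' processing notes. The deposited barcodes each held at least 501 genes. Barcodes with over 10% mitochondrial UMIs were left out, fibroblasts and subtypes were gated on summed marker UMIs, and CPM was computed from the count sums. The gate needed at least 8 fibroblast marker UMIs, at most 2 immune UMIs and at most 1 endothelial or mural UMI. Gate limits were set after marker UMIs were seen. Scrublet (scanpy 1.11.5) marked 179 barcodes, 42 of them fibroblasts, which stayed in except in an alternative.

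Sums per library and subtype were tested with edgeR 4.0.16 (R 4.3.3; TMM, filterByExpr, quasi-likelihood, Benjamini-Hochberg adjustment at 0.05 over all genes tested); DESeq2 1.42.0 was an alternative. Targeting was fitted with a term for each pair of targeted and control library, taking knockout and antibody as repeats of 1 effect in arthritis, which leaves 1 residual degree of freedom; the lone healthy pair is assumed to vary like the arthritic pairs. Arthritis was fitted on group means, with 2 arthritic libraries against 1 healthy library, and subtypes with library as a block. In simulated data 200 genes were changed by a log2 fold of 1. Of these, 87.5% were recovered for targeting in arthritis (13065 genes), with 8 false calls. For arthritis without targeting (13011 genes) 84.5% were recovered, with 6 false calls, and for lining (8448 genes) 100%, with 7. These shares hold for the simulated spread only. In the real libraries 0 of 13339 genes were called for arthritis without targeting. All members could be named; of each other list, at most 3 genes per direction with the largest called change, besides matrix, Prg4 and gate genes. The members and all lists were chosen with earlier results of these data known. Intervals cover counting error only.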

Additional observations from a re-analysis of the deposited data

How the results depend on the processing

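Of 1833 values recomputed for 127 pairs of a named gene and a comparison, 1551 kept their direction and side of the threshold, 252 kept direction but lost the call, 26 gained one and 4 changed sign. The 4 were, in Ccl11/Smoc2 fibroblasts, Dnajb9 (-0.0475), Hspa5 (-0.0418) and P4hb (0.055) in stress-poor cells, and P4hb (0.0714) with cells thinned to 2000 UMIs. The cause was not tested. Counts of members called moved as follows, without the shares of all genes, which are not given for the alternatives. Without the low-count filter, targeting in arthritis had 1 higher and 6 lower, the arthritic minus healthy difference 1 lower, arthritis 8 higher without and 1 higher with targeting, targeting within lining 1 lower, Ccl11/Smoc2 4 higher, Myoc/Dkk2 1 lower and tendon-like 2 lower. With DESeq2, arthritis without targeting had 5 higher, H19/Cthrc1 3 higher and 7 lower, Sfrp4/Fbln7 1 lower, tendon-like 0 lower and targeting within Sfrp4/Fbln7 0 lower. Median-of-ratios scaling gave H19/Cthrc1 3 higher and 7 lower, and scaling without matrix genes and Prg4 gave it 3 higher. With thinned cells, Ccl11/Smoc2 had 6 lower, H19/Cthrc1 1 higher, Myoc/Dkk2 0 higher and 0 lower, Saa3/Cxcl5 7 higher, Sfrp4/Fbln7 0 higher and 1 lower, and targeting gave 1 lower within lining and 0 within Sfrp4/Fbln7. Without Scrublet-marked cells, targeting in arthritis had 1 lower, P3h1. The stricter gate gave H19/Cthrc1 6 lower, Myoc/Dkk2 4 lower and targeting within Sfrp4/Fbln7 0 lower. With at least 100 cells per sum, Ccl11/Smoc2 had 2 lower, Myoc/Dkk2 4 higher and 0 lower, and Sfrp4/Fbln7 9 higher. Assigning cells of several gates left Myoc/Dkk2 0 higher and Sfrp4/Fbln7 2 higher. In stress-poor cells, targeting in arthritis had 2 lower, Ccl11/Smoc2 1 higher and 0 lower, H19/Cthrc1 0 higher, Myoc/Dkk2 0 higher and 1 lower, Sfrp4/Fbln7 2 higher and tendon-like 10 higher. The subtype scaling without matrix genes and all stress-poor settings were chosen after seeing the data. With single libraries left out, arthritis without targeting had 0 to 1 higher (1 without arthritic WT), Ccl11/Smoc2 4 to 6 higher and 5 to 12 lower, H19/Cthrc1 0 to 7 higher and 1 to 6 lower, lining 3 to 7 higher (7 without arthritic WT), Myoc/Dkk2 0 to 2 higher and 0 to 1 lower, Pi16 5 to 9 lower, Sfrp4/Fbln7 2 to 5 higher, and tendon-like 4 to 16 higher and 0 to 1 lower. Leaving out libraries was not run for targeting, where no residual degrees of freedom remain. The 100-cell minimum gave no value for Pi16, H19/Cthrc1, Saa3/Cxcl5 or tendon-like, thinning none for targeting within Ccl11/Smoc2, and Saa3/Cxcl5 none without isotype or arthritic WT. Every contrast rests on 6 pooled libraries with no replicate of a group, and Hyou1, at 12.1 CPM or less, is the member with the fewest UMIs.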
